A study of Homo sapiens with 6 samples.

Results

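The genes examined here encode the subunits of the mitochondrial respiratory chain and of the ATP synthase that are made from nuclear DNA. They were taken as the genes whose symbol in the platform's annotation starts with NDUFA, NDUFB, NDUFC, NDUFS or NDUFV and a number, is SDHA, SDHB, SDHC or SDHD, or starts with UQCR, COX4 to COX8, ATP5F1, ATP5M or ATP5P. Only probe sets (groups of short array probes) that name such a gene alone were used, and the probe set with the highest mean over the 6 arrays stood for each gene. The rule gave 80 of 19775 genes. Of these, 75 are subunit genes, namely 32 of complex I, 3 of complex II, 6 of complex III, 17 of complex IV and 17 of the ATP synthase (complex V). The other 5 match by name only: NDUFB2-AS1 and NDUFV2-AS1 are antisense transcripts, NDUFV1-DT is a divergent transcript, and COX6A1P1 and ATP5MC2P1 are pseudogenes. SDHB and UQCRFS1 were not analysed here.

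Expression had been measured in BL2, an established Burkitt lymphoma cell line, so all values come from 1 line. Cells grown in complete RPMI were electroporated with a scrambled siRNA as the control or with 4 pooled siRNAs that target LEF1, a DNA-binding factor of the TCF/LEF family and partner of beta-catenin. Electroporation was therefore common to both groups, and the time to harvest is not given in the sources used here. Each group had 3 biological replicates, and the labels give 3 batches with a control and a LEF1 siRNA array in each. Values are log2 expression, a difference is LEF1 siRNA minus scrambled siRNA, and errors are SDs over 3 arrays.

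LEF1 itself fell in every batch, from 11.04 ± 0.43 to 8.32 ± 0.30 at its brightest probe set, which left 15.2% of the signal. Its other probe sets went from 8.45 to 6.61 and from 7.58 to 7.29. The median of all probe sets was 6.91, a level taken here as near background. All 9 B cell and germinal-centre markers measured lay well above it, with means per array of 11.6 to 11.8. Of them 1, MME (CD10), was lower at an adjusted p under 0.05 with batch as block (-0.43, limma adjusted p = 0.000605, and 0.70 without). Markers of T and NK cells (0 of 5 past an adjusted p of 0.05, below termed called), myeloid (0 of 4), erythroid (0 of 1), epithelial (0 of 3) and fibroblast cells (0 of 4) stayed at mean levels of 6.34 to 7.31 on every array. COL1A1 alone among these exceeded 7.91, a level 1 log2 unit above the median.

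Electrons from NADH enter the chain at complex I, and those from succinate at complex II. Both pass them by way of coenzyme Q to complex III, from which cytochrome c carries them to complex IV, where oxygen is reduced. Complexes I, III and IV pump protons across the inner mitochondrial membrane, and the ATP synthase uses their return to make ATP. All but complex II also hold subunits encoded in mitochondrial DNA. NRF1, GABPA (an ETS factor) and YY1 are known regulators of many of the nuclear genes, and MYC is known to raise mitochondrial biogenesis in growing cells.

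Short letter motifs of these factors were counted in the members' promoters. RefSeq (GRCh38.p14) gave a window of 300 bases, 250 before the start site and 50 after it, for 64 of the 75 subunit genes. The NRF1 letters GCATGCGC stood in 12 of these windows (18.8%), against 3.05% of all 35116 promoters. The ETS letters CCGGAAG stood in 18 (28.1%, against 10.3%) and the YY1 letters AAGATGGC in 10 (15.6%, against 2.89%). The TCF/LEF letters, CTTTGAT or CTTTGAA, stood in 1 window (1.56%, against 6.86%), that of NDUFA5. Both strands were searched, and the ETS and YY1 letters can overlap by AAG. The subunit genes counted with 1 promoter each, the first listed for the gene. Whether its start site is the one used in BL2 was not tested. The set of all promoters was not limited to 1 per gene or to genes measured here. The subunit promoters and all promoters are therefore not matched. A match describes the letters and is not a binding site.

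Of the sequences below, ATP5PF is printed because its window holds the letters of NRF1, ETS and YY1, and NDUFA5 and UQCRC1 because they are the subunit genes with called differences. Each runs 5′ to 3′ on the gene's strand, from 150 bases before the start site to 4 after it, and capitals mark motif letters. They lie on the minus strand at chr21:25735051-25735204, chr7:123601648-123601801 and chr3:48609643-48609796 in that order. In NDUFA5 the capitals are the TCF/LEF letters on the opposite strand, and they start 3 bases before the start site. The 1 match of UQCRC1 is to YY1, 24 bases past the start site and so beyond the printed stretch.
ATP5PF: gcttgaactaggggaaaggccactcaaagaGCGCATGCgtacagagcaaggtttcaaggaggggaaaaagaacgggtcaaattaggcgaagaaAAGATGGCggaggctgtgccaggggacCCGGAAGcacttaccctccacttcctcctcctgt
NDUFA5: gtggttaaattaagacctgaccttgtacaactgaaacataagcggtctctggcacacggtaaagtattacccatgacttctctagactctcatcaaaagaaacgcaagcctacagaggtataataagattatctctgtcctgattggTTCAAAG
UQCRC1: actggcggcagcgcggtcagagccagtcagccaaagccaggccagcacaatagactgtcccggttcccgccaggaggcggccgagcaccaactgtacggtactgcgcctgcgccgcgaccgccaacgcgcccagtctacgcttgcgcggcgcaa

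Subunit transcripts differed little between the groups. The median difference over the 80 members was -0.0015, and over the 75 subunit genes it was -0.010, against 0.019 over all genes. Of the 75, 72 (96.0%) differed by less than 0.2 in either direction. The same held for 84.9% of the 1056 genes at least as bright as the lower quartile of the subunit genes (a level of 11.2), subunit genes included and here called equally bright genes, and for 89.7% of all genes. No 95% confidence interval of a subunit gene's difference reached below -0.41 or above 0.435. The differences were fitted with limma, with batch as a block and p-values adjusted over all 54613 probe sets. In that fit 1 member was called lower at an adjusted p under 0.05, UQCRC1, and 1 was called higher, NDUFA5. These are 1.25% of the members in each direction, against 1.51% of all probe sets called lower and 4.58% called higher. At 1 probe set per gene, 1.70% of all genes were called lower and 6.73% higher. Of the equally bright genes these shares were 5.97% and 5.30%. The members' shares were near or under each of these. Without the block 0 members were called in either direction, against 0.00732% of probe sets lower and 0.011% higher. At an unadjusted p under 0.05 the blocked limma fit had 6 members lower and 6 higher (5.46% and 11.6% of probe sets), and the fit without block 1 lower and 2 higher (2.26% and 5.58%).

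**Figure D1:**
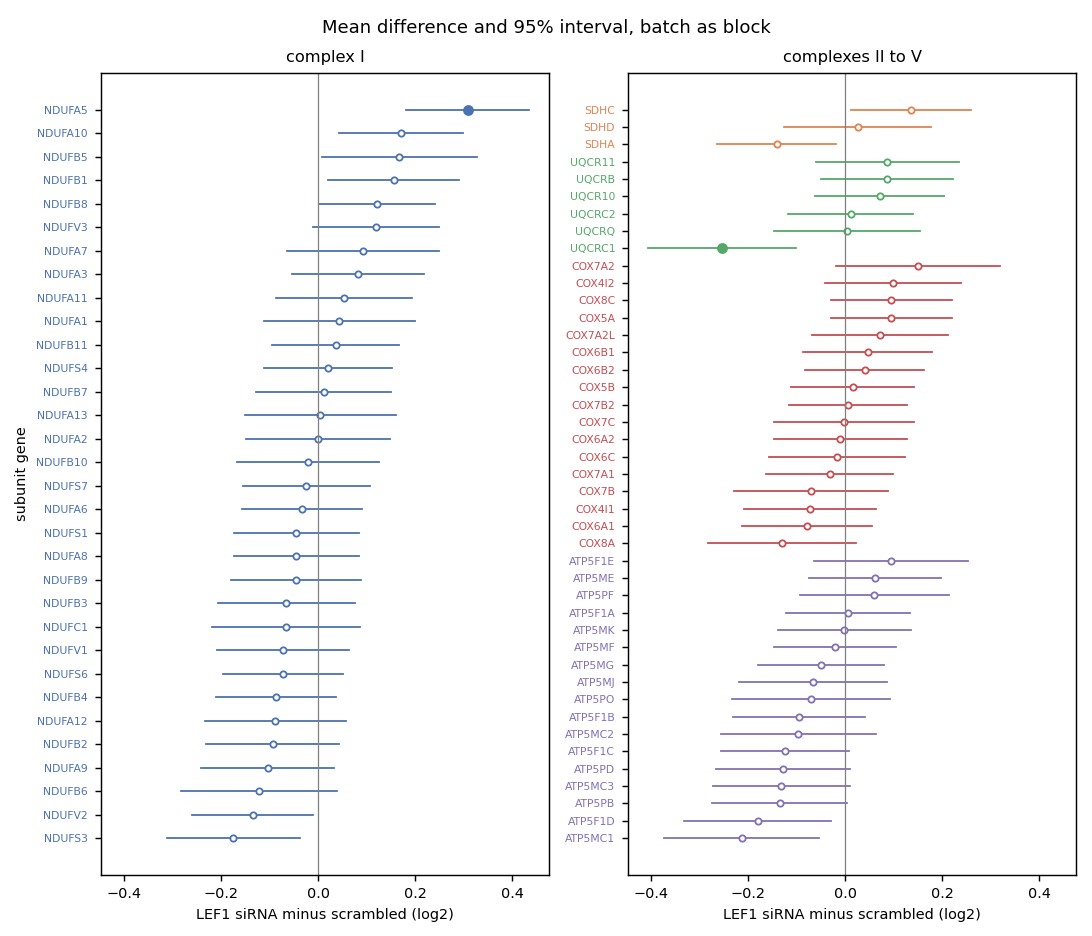
Mean log2 difference (LEF1 siRNA minus scrambled siRNA, horizontal axis) of each of the 75 subunit genes, with its 95% interval from the limma fit with batch as block; complex I is on the left, complexes II to V are on the right. Filled points are the 2 called genes, NDUFA5 at 0.31 and UQCRC1 at -0.25, and the others are open.

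Complex I, the NADH dehydrogenase, was represented by 5 conserved core subunits, which carry the electron path, and 27 supernumerary ones. The core subunits all had mean differences below 0, from -0.17 to -0.02, also under each of the 4 other scalings tried, and 0 of 5 were called. In the deposited values 59.6% of the equally bright genes and 40.8% of all genes were lower on average. NDUFV1, which holds the NADH site, read 11.46, 11.59 and 11.85 with scrambled siRNA and 11.55, 11.45 and 11.68 with LEF1 siRNA in batches 1 to 3. Its groups overlapped, and the difference of -0.07 had an interval from -0.21 to 0.06 (limma adjusted p = 0.670). NDUFS1, the largest subunit of the electron path, read 10.66, 10.71 and 10.85 against 10.72, 10.56 and 10.81, again with overlap (-0.05, interval -0.17 to 0.08).

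NDUFS3, a core subunit of the matrix arm, had the lowest difference of complex I. It read 11.22, 11.28 and 11.50 with scrambled siRNA and 11.21, 11.07 and 11.20 with LEF1 siRNA. The 3 LEF1 siRNA arrays lay below the 3 control arrays, by little in batch 1. The difference of -0.17 (interval -0.31 to -0.04) did not pass (limma adjusted p = 0.150). It passed when batch 1 was left out (-0.26, limma adjusted p = 0.0312). Outside the rule for named genes, NDUFV2 is given as a further core subunit lower in every batch, at 11.58 ± 0.15 and 11.45 ± 0.10 (limma adjusted p = 0.239).

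The 27 supernumerary subunits, which surround the core and serve its assembly and stability, had a median difference of 0.004, with 13 of 27 lower on average. NDUFA5, a subunit of the matrix arm, was the only member called higher. Its values were 11.09, 10.85 and 10.98 with scrambled siRNA and 11.32, 11.25 and 11.28 with LEF1 siRNA. Every LEF1 siRNA array lay above every control array, and the batch differences were 0.23, 0.40 and 0.30. The mean difference was 0.31 (interval 0.18 to 0.43), 1.24-fold, with a limma adjusted p of 0.00612 with batch as block and 0.229 without. The call was lost without batch 2 (0.26, limma adjusted p = 0.0670). A further NDUFA5 probe set, at 6.55 and so in the background range, differed by 0.10 (limma adjusted p = 0.449).

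Other supernumerary subunits with an unadjusted p under 0.05, named here after their values were seen, were all higher. NDUFA10 differed by 0.17, NDUFB5 by 0.17, NDUFB1 by 0.16 and NDUFB8 by 0.12, and their limma adjusted p-values ran from 0.126 to 0.285. NDUFA10 and NDUFB8 were higher in 3 of 3 batches, whereas NDUFB5 and NDUFB1 were higher in 2. The groups of all 4 overlapped. NDUFB4, of the membrane arm, had control values of 12.41 to 12.51 and LEF1 siRNA values of 12.30 to 12.41 without overlap, but a difference of only -0.09 (limma adjusted p = 0.525).

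Complex II, the succinate dehydrogenase, is an enzyme of both the chain and the TCA cycle. SDHA, its flavoprotein, read 10.40, 10.38 and 10.65 with scrambled siRNA and 10.26, 10.18 and 10.57 with LEF1 siRNA. It was lower in each batch while the groups overlapped, since the LEF1 siRNA array of batch 3 lay above the control arrays of batches 1 and 2. The difference of -0.14 (interval -0.26 to -0.02) did not pass (limma adjusted p = 0.201). SDHC, a membrane anchor, read 10.64, 10.48 and 10.69 against 10.80, 10.67 and 10.74, a difference of 0.14 (interval 0.01 to 0.26, limma adjusted p = 0.233). Its 3 other probe sets of similar brightness differed by -0.03, -0.06 and -0.04, so they did not share its sign. SDHD, the other anchor, differed by 0.03.

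Complex III, the ubiquinol-cytochrome c reductase, held the only member called lower. UQCRC1, a large matrix-facing core protein, read 11.84, 11.91 and 12.00 with scrambled siRNA and 11.79, 11.65 and 11.55 with LEF1 siRNA. The groups did not overlap, and the batch differences of -0.05, -0.26 and -0.45 were of unequal size. The mean difference was -0.25 (interval -0.41 to -0.10), which left 83.8% of the signal. Its limma adjusted p was 0.0486 with batch as block, where most of the variance is drawn from all probe sets, and 0.388 without. The call was lost without batch 2 (-0.25, limma adjusted p = 0.179), without batch 3 (-0.16, limma adjusted p = 0.294), and likewise with limma's trend and robust settings or with array weights. UQCRC1 has no other probe set that names it alone.

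The partner core protein UQCRC2 differed by 0.01 (interval -0.12 to 0.14). The 4 small subunits UQCRB, UQCRQ, UQCR10 and UQCR11 differed by 0.003 to 0.09, and none passed. UQCR11 had the highest difference, with 12.53, 12.58 and 12.72 against 12.78, 12.69 and 12.61, and overlapped (limma adjusted p = 0.624). Within complex III the lower UQCRC1 stood beside 5 subunits whose mean difference was above 0, but only 3 were with array medians set equal and 0 with poly-A spike-in scaling.

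**Figure D2:**
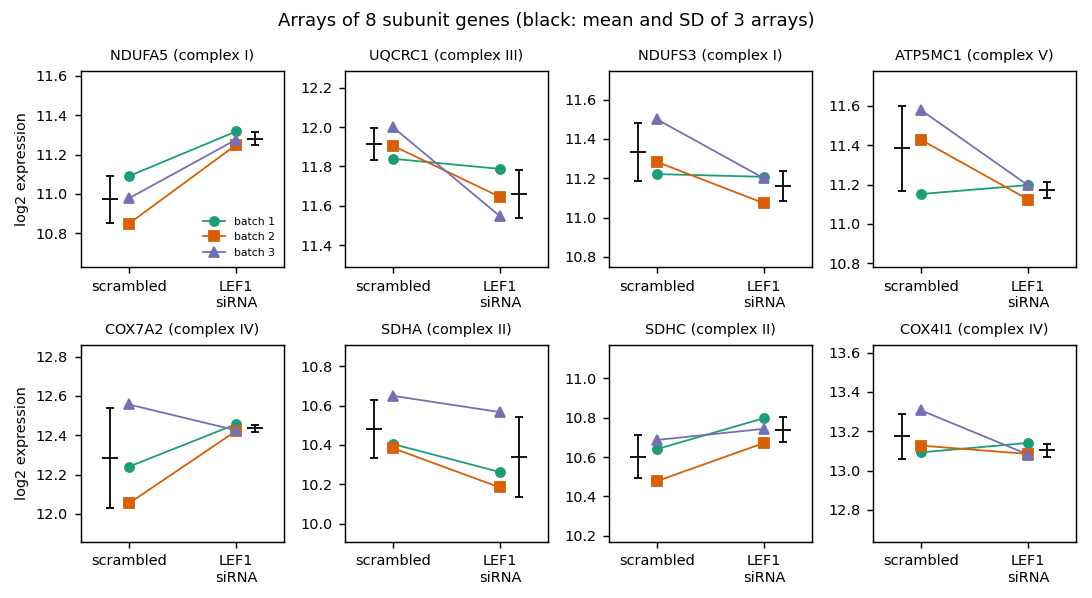
Log2 expression (vertical axis, each panel with its own range) of 8 subunit genes on the scrambled siRNA and LEF1 siRNA arrays. Lines join the arrays of 1 batch, and black marks give the mean and SD of 3 arrays. NDUFA5 and UQCRC1 do not overlap between groups, NDUFS3 does not either, and the other 5 genes overlap.

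Complex IV, the cytochrome c oxidase, has subunits that are made in most tissues and isoforms restricted to some. The 10 ubiquitous nuclear subunits had a median difference of -0.01, and 0 of 10 were called. COX4I1, which is needed for assembly, read 13.09, 13.13 and 13.31 with scrambled siRNA and 13.14, 13.08 and 13.08 with LEF1 siRNA (-0.07, interval -0.21 to 0.06). COX5B, the zinc-binding subunit, read 12.09, 12.12 and 12.15 against 12.20, 12.14 and 12.08 (0.02, interval -0.11 to 0.14). The groups overlapped for each gene.

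COX7A2, a small membrane subunit, had the highest difference of the complex, with 12.24, 12.05 and 12.56 against 12.46, 12.42 and 12.43. Its control arrays spanned far more (SD 0.25) than its LEF1 siRNA arrays (SD 0.02), and the difference of 0.15 did not pass (limma adjusted p = 0.370). Without batch 3 it was 0.29 and passed (limma adjusted p = 0.00605). COX8A, another small membrane subunit, had the lowest difference, with 12.28, 12.32 and 12.41 against 12.38, 12.05 and 12.19 (-0.13, limma adjusted p = 0.40). Without batch 1 it was -0.25 and passed (limma adjusted p = 0.0380).

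The 6 tissue-restricted isoforms stayed near the background median of 6.91 in both groups. Their means over 6 arrays were 7.18 for COX4I2, 6.87 for COX6A2, 7.35 for COX6B2, 6.60 for COX7A1, 6.42 for COX7B2 and 5.99 for COX8C. COX6A2 and COX7A1 are the heart and muscle forms, and COX4I2 is the lung form. COX8C showed higher values without overlap (5.94 ± 0.04 and 6.04 ± 0.05), at a level where the signal is mostly background. Over all members 3 were lower without overlap (NDUFS3, NDUFB4 and UQCRC1) and 2 higher (NDUFA5 and COX8C), against 4.59% and 7.88% of all probe sets. COX7A2L, which joins complexes III and IV into supercomplexes, differed by 0.07 (interval -0.07 to 0.21).

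The ATP synthase had the lowest median difference of the 5 complexes, -0.07 over 17 genes, with 13 of 17 lower on average (12 to 17 across the scalings tried) and 0 called. Of the equally bright genes 59.6% were lower on average, with a median of -0.035. ATP5F1A and ATP5F1B encode the alpha and beta subunits of the catalytic F1 head. ATP5F1A read 13.49, 13.42 and 13.81 with scrambled siRNA and 13.54, 13.50 and 13.71 with LEF1 siRNA (0.01, interval -0.12 to 0.13). ATP5F1B read 12.95, 12.99 and 13.20 against 13.00, 12.88 and 12.97 (-0.10, interval -0.23 to 0.04). ATP5F1E, the epsilon subunit, read 13.00, 13.01 and 13.02 against 13.22, 13.23 and 12.85, the highest mean difference of the enzyme at 0.09 (limma adjusted p = 0.620). Its control arrays were nearly equal, and its batch 3 LEF1 siRNA array alone lay below them.

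ATP5MC1, ATP5MC2 and ATP5MC3 encode the same mature c subunit, which forms the rotating membrane ring. ATP5MC1 read 11.15, 11.43 and 11.58 with scrambled siRNA and 11.20, 11.12 and 11.20 with LEF1 siRNA. The LEF1 siRNA arrays were alike, the control arrays were not, and the groups overlapped through batch 1. Its difference of -0.21 (interval -0.37 to -0.05), the lowest of the enzyme, did not pass (limma adjusted p = 0.126), but passed without batch 1 (-0.34, limma adjusted p = 0.00205). ATP5MC2 differed by -0.10 and ATP5MC3 by -0.13. All 3 genes of the c ring were lower in batches 2 and 3 under every scaling tried. In batch 1 all 3 were higher in the deposited values, but 1 of 3 after quantile normalization or poly-A scaling and 2 of 3 after cyclic loess.

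Among the 4 peripheral stalk subunits, which hold the head still, 3 were lower on average (ATP5PB, ATP5PD and ATP5PO) and ATP5PF was higher, with differences of -0.14 to 0.06. The 5 small membrane subunits differed by -0.07 to 0.06. ATP5MF could be read alone only by a dim probe set at 7.09, whereas its bright one also names ARMC2-AS1. The 5 members that are not subunits differed by 0.02 to 0.12, and 0 of 5 were called. On an array, the signals of a pseudogene and its parent gene (COX6A1P1 and COX6A1, ATP5MC2P1 and ATP5MC2) can mix, so these values are uncertain.

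The sign of most subunit differences changed with the batch. The median difference was 0.10 in batch 1, 0.01 in batch 2 and -0.14 in batch 3, and 61, 39 and 10 of the 75 genes were higher with LEF1 siRNA in these batches. In the deposited values all 5 complexes followed this order from batch 1 to batch 3, although complex II has only 3 genes. In batch 3, 0 of 17 ATP synthase genes were higher and their median was -0.23 (2 of 17 and -0.10 after quantile normalization, 3 of 17 and -0.10 after cyclic loess). Without batch 3 the enzyme's median was 0.01, and without batch 1 it was -0.16. Only 8 of 75 subunit genes were lower in 3 of 3 batches and 7 were higher in 3 of 3, against 26.7% and 18.7% of the equally bright genes.

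**Figure D3:**
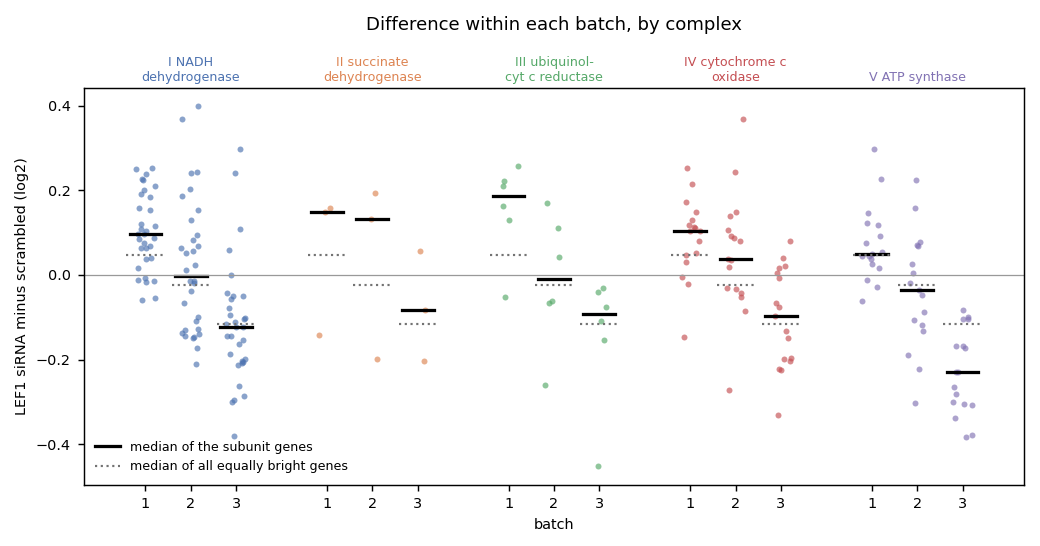
Log2 difference (LEF1 siRNA minus scrambled siRNA, vertical axis) of each subunit gene within batches 1, 2 and 3, by complex. Bars mark the median of the subunit genes and dotted lines that of the equally bright genes. Most points lie above 0 in batch 1 and below 0 in batch 3, and the dotted lines shift in the same order.

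The equally bright genes as a whole shifted in the same order. Their median differences were 0.05, -0.02 and -0.12 in batches 1 to 3, with 67.0%, 43.7% and 25.2% higher. Over all probe sets the medians were 0.001, 0.033 and 0.005. Set against each gene's own mean over 6 arrays, the scrambled siRNA array of batch 3 stood apart. Its median was 0.14 over the subunit genes, with 62 of 75 above their mean, and 0.16 over the equally bright genes, with 949 of 1056 above. The other 5 arrays had subunit medians from -0.06 to 0.01. The subunit genes also varied more over the control arrays (median SD 0.12) than over the LEF1 siRNA arrays (0.07), as did the equally bright genes (0.14 and 0.11). After quantile normalization the subunit medians of the 3 batches became 0.02, 0.02 and -0.06, and after cyclic loess 0.05, 0.01 and -0.05. Those of the equally bright genes became -0.007, 0.005 and -0.003 after quantile normalization. After cyclic loess they were 0.0001, 0.003 and -0.006. A smaller batch 3 shift of the subunit genes thus remained where that of the equally bright genes was near 0. The part of the scrambled siRNA array of batch 3 in the results was not tested.

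**Figure D4:**
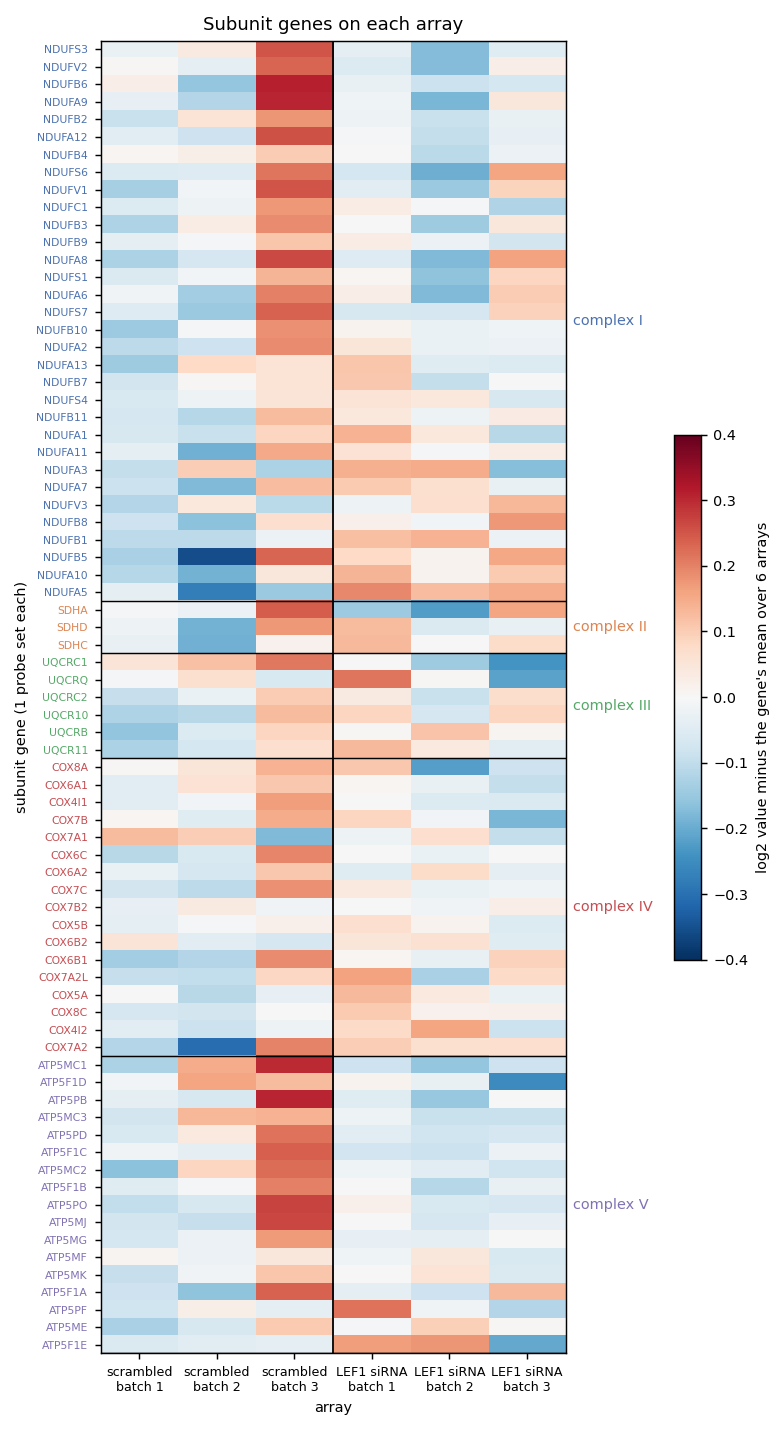
Log2 value of each of the 75 subunit genes on each of the 6 arrays minus the gene's mean over the 6 arrays, as colour from blue (lower) to red (higher), ordered by complex and by mean difference. The column of the scrambled siRNA array of batch 3 is mostly red, with 62 of 75 genes above their mean.

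Most subunit genes had a further probe set, but most of these probe sets did not exceed a level of 7.91. The 75 subunit genes had 72 more probe sets that name them alone, for 43 genes, of which 0 were called in the blocked limma fit. Of these 72, 35 had the sign of the chosen probe set, and 0 had the opposite sign with a difference past 0.2. Of the 32 probe sets above a level of 7.91, 15 had the same sign. In both counts fewer shared the sign of the chosen probe set than did not.

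Scaling to the poly-A spike-ins, bacterial RNAs that serve as labelling controls, moved all genes together. Their mean level was higher on the LEF1 siRNA array of each batch, by 0.13, 0.08 and 0.15. An exact permutation test of 3 against 3 arrays, two-sided, which does not use the batch pairing, gave p = 0.5. Setting them equal therefore lowered every LEF1 siRNA minus scrambled difference by 0.12. In that scaling 18 members (22.5%) were called lower and 0 higher, against 14.3% and 1.78% of all probe sets and 35.1% of the equally bright genes lower. In bulk RNA the number of cells, the RNA per cell and the amount of spike-in added cannot be told apart, and none was tested. The 3′ over 5′ difference of the GAPDH control probe sets was alike in both groups (0.07 and 0.07). That of ACTB was higher with LEF1 siRNA in each batch, by 0.11, 0.33 and 0.12. The exact permutation p for ACTB was 0.1, the smallest that 3 against 3 arrays allow, and 0.4 when adjusted over the 4 control measures. The part of either measure in the subunit differences was not tested.

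The lists of partner genes were read in the same blocked limma fit, in which 1.51% of all probe sets were called lower and 4.58% higher. At 1 probe set per gene, as in the lists, the shares were 1.70% and 6.73% of all genes. None of the listed genes passed without the block. Among 8 subunits, carriers and associated proteins outside the naming rule, 0 were called. NDUFAB1, the acyl carrier subunit of complex I, differed by -0.16 (limma adjusted p = 0.265) and DMAC2, a complex I assembly protein, by 0.11 (limma adjusted p = 0.397). Of 7 transcripts of mitochondrial DNA, 1 was called higher. COX3, a catalytic core subunit of complex IV, read 10.61, 10.50 and 9.73 with scrambled siRNA and 10.93, 11.10 and 10.60 with LEF1 siRNA. It was higher by 0.32, 0.60 and 0.87 in the batches, and the groups overlapped where the LEF1 siRNA array of batch 3 lay just below the control array of batch 1 (limma adjusted p = 0.00079 with the block and 0.543 without). ND6 differed by 0.23 and was not called (limma adjusted p = 0.0614). The other 5, ND2, ND4, COX1, COX2 and ATP6, differed by -0.09 to 0.05.

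Among 55 assembly factors 1 was called lower and 5 higher. NDUFAF5, a complex I assembly factor, read 8.71, 8.92 and 9.09 against 8.54, 8.50 and 8.66 without overlap (-0.34, limma adjusted p = 0.00613). SDHAF3, which serves complex II assembly, read 10.15, 9.75 and 9.71 against 10.51, 10.39 and 10.01 with overlap (0.43, limma adjusted p = 0.00207). COX15 and SURF1 serve complex IV assembly, the former in making its heme A. COX15 was higher by 0.26 and ATPAF2, an ATP synthase assembly factor, by 0.26, both without overlap. SURF1 and NDUFAF3, named for completing the count, were higher by 0.23 and 0.27.

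Of 16 coenzyme Q and electron transfer genes 0 were called, and the largest differences were 0.18 for COQ10B (limma adjusted p = 0.156) and -0.14 for COQ7 (limma adjusted p = 0.217), a hydroxylase of coenzyme Q synthesis. Of 21 regulators of mitochondrial biogenesis and mitochondrial DNA expression 0 were called. YY1 was 0.19 higher, in 3 of 3 batches (limma adjusted p = 0.0653). MYC was 0.15 lower, in 3 of 3 batches (limma adjusted p = 0.155). Of 16 genes of the TCA cycle and pyruvate dehydrogenase, SUCLG2, a subunit of succinyl-CoA ligase, was called higher and IDH3A, the catalytic subunit of NAD-dependent isocitrate dehydrogenase, lower. SUCLG2 read 9.79, 9.51 and 9.84 against 10.30, 10.22 and 10.15 (0.50, limma adjusted p = 0.000899). IDH3A read 10.49, 10.58 and 10.53 against 10.31, 10.18 and 10.34 (-0.26, limma adjusted p = 0.0242). Neither overlapped between groups.

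Of 17 mitochondrial import genes 2 were called lower. TIMM44, which tethers the import motor, differed by -0.31 (limma adjusted p = 0.00637), and TIMM10, an intermembrane space chaperone, by -0.28 (limma adjusted p = 0.0255). For both, the 3 LEF1 siRNA arrays lay below the 3 control arrays.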

How the data were processed

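RNA of 6 BL2 cultures, labelled with biotin by a 3′ IVT kit per the labels' protocols, was read on an Affymetrix HG-U133 Plus 2.0 array. The values deposited by the authors are log2 expression, 1 per probe set and array, read as log2 from their range of 5.45 to 15.0. Their background correction and normalization are not given in the sources used here. Of 54675 probe sets, 62 controls were left out. Of the 54613 tested, 41091 named 1 gene, 1801 several and 11721 none in the platform's annotation, and checking against RefSeq GRCh38.p14 changed 0 symbols. For 36 members 1 probe set names the gene alone, and for 44 several do. The members, gene lists and rules were chosen with earlier results of these data known.

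The fit used lmFit and eBayes of limma 3.58.1 (R 4.3.3, and its data.table package, version 1.17.8) with batch as block and Benjamini-Hochberg adjustment over the 54613 probe sets. Arrays of both groups are paired by the labelled batch. Over all probe sets, their deviations from the group mean had correlations within batches of 0.477, 0.493 and 0.621. Over the 75 subunit genes these correlations were lower, at 0.152, 0.371 and 0.570. Residual and prior degrees of freedom were 2 and 12.0 in the blocked fit, against 4 and 4.07 in the other. P-values of the blocked fit set the mean difference against the spread of the within-batch differences in these cultures of 1 line. Those of the fit without block use the spread between the cultures of a group. In both fits the variance is partly drawn from all probe sets. With 2 residual against 12.0 prior degrees of freedom, most of it is so drawn in the blocked fit. A gene's own batch differences therefore weigh little in the variance of that fit. The number of arrays limits the precision. On simulated data for 54613 probe sets (100 shifted by 0.3, another 100 by 0.6 on the log2 scale) the blocked fit recovered 88% and 100%, with 27 false among 215 calls. The false share of the blocked fit's calls was above the threshold of 0.05. The fit without block recovered 0% and 59%, with 0 false calls. These shares hold for the simulated data only. Whether they hold for the subunit genes, many of which shifted together by array, was not tested.

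Members named with all 6 values were the called ones, those with the largest difference in each direction in each complex, and chosen core subunits. Of each list up to 4 called genes were named, else up to 2 with the largest differences, some by their difference alone. Alternatives changed the block, normalization, filters, probe set choice, eBayes settings, weights, threshold and the arrays used. Figures were drawn with matplotlib 3.10.9 and pandas 2.3.3 in Python 3.11.15.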

Additional observations from a re-analysis of the deposited data

How the results depend on the processing

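The calls rested on the block and on single batches, while the median stayed near 0 in the deposited scaling. With batch as block 1 member was called lower and 1 higher; with no replicate block 0 and 0 were. The trend and robust settings, and likewise array weights, gave 0 lower and 1 higher. Scaling to the poly-A spike-ins gave 18 lower and 0 higher and a median of -0.12, and the r2 spike-in probe sets alone, chosen after seeing the data, gave 26 lower, 0 higher and -0.14; a common shift is built into both. Leaving out 1 array or 1 batch gave 0 to 5 lower and 0 to 4 higher, and the median ran from -0.05 to 0.06. Leaving out an array with the batch term leaves its partner uninformative, so both gave the same values. Without batch 1, 5 members were called lower; without batch 2, 0 in either direction; without batch 3, 0 lower and 4 higher. Elsewhere the cause was not tested. Quantile, equal-median and cyclic loess scaling, leaving out dim probe sets, another probe set per gene, probe sets naming several genes, a threshold of 0.1 and subunit genes only kept both counts at 1. Of the recomputed values of named members, 191 kept their side of the threshold, 17 passed newly and 12 no longer passed. Another 4 that were not called moved by more than the spread between arrays. Of the 191, 19 turned in sign, none of them called.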

Other observations

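Subunits that only probe sets of several genes can read were left out above and are given here as values. NDUFS8, an iron-sulfur core subunit of complex I, shares its probe sets with the microRNA genes MIR7113 and MIR4691 that the annotation places in it. Its brightest read 10.77, 10.80 and 11.03 with scrambled siRNA and 10.78, 10.76 and 10.68 with LEF1 siRNA (-0.12, limma adjusted p = 0.422). Another differed by -0.16 without overlap between groups (limma adjusted p = 0.190) and a dim one by 0.13. NDUFC2, of the membrane arm, shares its bright probe set with the NDUFC2-KCTD14 readthrough and differed by -0.05. NDUFS5, paired with the ribosomal protein gene RPL10, differed by 0.05. UQCRH, the hinge protein of complex III, shares a probe set with its near copy UQCRHL and differed by 0.02. The bright ATP5MF probe set, shared with ARMC2-AS1, differed by -0.09. A probe set of NDUFS3 and PTPMT1 differed by 0.06, against -0.17 at the probe set of NDUFS3 alone. None of these was called with batch as block.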
